A study of Homo sapiens with 20 samples.

Results

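The 10 genes described here are NFE2L2, which encodes the transcription factor NRF2, 7 of its antioxidant target genes (HMOX1, NQO1, GCLC, GCLM, TXNRD1, SRXN1 and SLC7A11), and FTH1 and FTL, which encode the chains of the iron store ferritin. They were chosen by name, as rows of the table with these symbols, and are 10 of the 24196 genes in the deposited expression table. All 10 passed the filter on low values and are among the 12486 genes tested. RNA-seq was measured in orthotopic tumors of OVCAR8, a human ovarian cancer cell line, in immunodeficient NSG mice, with 4 libraries of mice given PBS and 4 of mice given sodium gluconate. The labels call the samples tumors, whereas the study's own text speaks of treated cells, and the labels were followed. By the study's methods for its tumor experiment, luciferase-tagged OVCAR8 cells with a non-targeting guide (sgNC) went into the ovarian fat pad of mice aged 6 weeks, and PBS or 1 mg/kg gluconate was injected intraperitoneally each week for 35 days. On that reading both groups carry the same sgNC-luc cells, and NSG hosts lack mature T, B and NK cells. The other 12 libraries in the labels, of CHP1 or TMEM87A knockout cells and their controls, were not analysed here. The comparison asks whether the genes of this defense against oxidants and free iron differ in tumors of gluconate-treated mice.

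NRF2 is held in the cytoplasm by KEAP1, which hands it to a CUL3 ubiquitin ligase for breakdown. Oxidants and electrophiles modify cysteines of KEAP1, NRF2 then accumulates, pairs with small MAF proteins and binds antioxidant response elements in front of its target genes, while BACH1 competes for the same elements. The targets supply cystine and glutathione, reduce thioredoxin and peroxiredoxins, detoxify quinones, open the heme ring and store iron in ferritin, and in carcinomas this program is known for protecting cells against oxidant stress and lipid peroxidation. Ferritin is also set at translation, since iron regulatory proteins bind a hairpin in the leader of both ferritin mRNAs and hold them back when iron is scarce.

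The core of the antioxidant response element, TGACNNNGC, was searched on both strands in the RefSeq promoter windows of GRCh38.p14, which span 250 bases before to 50 bases after a start site. Windows were listed for 7 of the 10 genes (none for HMOX1, SLC7A11 and FTH1), and the core was in those of GCLM and TXNRD1, the latter with 3 matches in 2 windows. Of all 35116 windows, 13.3% hold it, so the match is a description of these letters only. The sequences below run 5′ to 3′ on the strand of the gene, and the capitals mark the core.
GCLM, chr1:93909431-93909490, minus strand, core on the opposite strand 34 bases before the start: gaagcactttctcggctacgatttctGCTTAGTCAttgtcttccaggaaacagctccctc
TXNRD1, chr12:104215654-104215713, plus strand, core on the same strand 99 bases before the first start: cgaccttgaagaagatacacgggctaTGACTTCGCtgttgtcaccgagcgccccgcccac
TXNRD1, chr12:104215761-104215789, plus strand, core on the opposite strand 8 bases before the first start: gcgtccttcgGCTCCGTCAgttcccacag
TXNRD1, chr12:104286904-104286963, plus strand, core on the opposite strand 102 bases before the second start: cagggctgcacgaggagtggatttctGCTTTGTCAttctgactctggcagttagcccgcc

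The ferritin mRNAs were searched for the loop of the iron-responsive element, CNNNNNCAGTGN, in the first 250 bases of coding transcripts of GENCODE 29 on GRCh38. It was found in 7 of 8 coding transcripts of FTH1 and in the 1 coding transcript of FTL, against 9.55% of all 82672 coding transcripts. The sites of the ferritin genes are shown because they are the shared control point of both mRNAs. They are identical in 25 of 28 bases, and the capitals mark the 6 bases of the loop.
FTH1 mRNA bases 57 to 84, chr11:61967577-61967604, minus strand: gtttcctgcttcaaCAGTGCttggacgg
FTL mRNA bases 33 to 60, chr19:48965333-48965360, plus strand: gtctcttgcttcaaCAGTGTttggacgg
RNA levels do not report what these hairpins do at translation, and ferritin protein was not measured in the files.

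One library stood apart before any comparison was made. PBS replicate 4 held 3953206 fragments, 9.95 to 11.8 times fewer than the 39325749 to 46551535 fragments of the other 7 libraries. It listed 15514 genes above 0, against 19991 to 20251 in the others. Its level was below that of every other library in 6 of the 10 genes (NFE2L2, HMOX1, GCLC, GCLM, SRXN1 and SLC7A11), where 58% of all genes tested had the same placing, so the share among the 10 genes was close to that of the whole table. The differences between groups are therefore given with and without this library. Values are FPKM, fragments scaled by gene length and library depth, and differences are limma's log2 fold changes of FPKM + 0.1, gluconate against PBS. The labels do not say that each library came from a separate mouse, so the p-values measure the spread between these libraries. In bulk tumor RNA, fewer cells of a type and less RNA per cell cannot be told apart.

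None of the 10 genes passed an unadjusted p under 0.05 in limma's test, while 4.62% of all genes tested did, and none passed by voom on the recovered fragments. Without PBS replicate 4 the count was again 0 of 10, against 6.18% of all genes. After Benjamini-Hochberg adjustment over all genes in limma, 0% of the genes tested had an adjusted p under 0.05, and the 10 genes lay between 0.740 and 0.987. The values of the groups overlapped for all 10 genes, while they did not overlap for 3.49% of all genes tested. The log2 fold changes were above 0 in 9 of the 10 genes and below 0 in FTL, and their median was 0.09 on the log2 scale beside 0.07 over all genes tested. Without PBS replicate 4, they were above 0 in 7 and below 0 in GCLC, GCLM and SRXN1, with a median of 0.04 beside 0.00 over all genes (-0.0033 before rounding). With median-ratio scaling, GCLC, GCLM, TXNRD1 and SRXN1 lay below 0 as well as FTL. The 95% intervals of the change differed between genes, from 0.848-fold to 1.13-fold for FTL and 0.947-fold to 1.25-fold for NFE2L2 to 0.876-fold to 1.80-fold for SLC7A11.

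**Figure D1:**
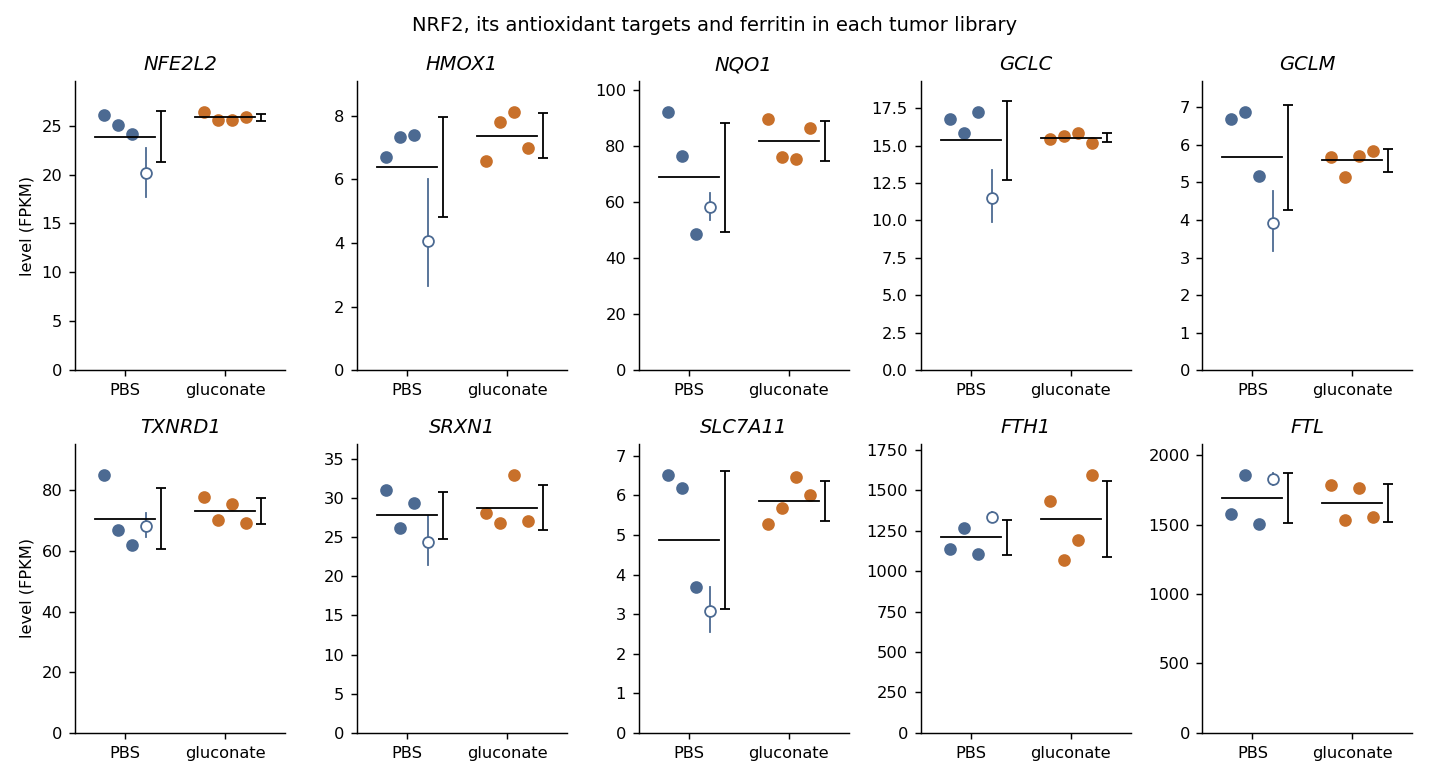
Level of each of the 10 genes in FPKM on a linear axis from 0, with 1 point per library in replicate order, the open point being PBS replicate 4 with its 95% Poisson interval. Horizontal lines are group means and the bars beside them are SDs (n = 4). The groups overlap in every panel, and the open point is the lowest of the 8 libraries in 6 panels.

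NFE2L2 (chr2:177227595-177392697, minus strand, GRCh38) is the gene of NRF2 itself, which is controlled mainly through protein stability. Its level in PBS replicates 1 to 4 was 26.1, 25.1, 24.1 and 20.1 FPKM. In gluconate replicates 1 to 4 it was 26.4, 25.6, 25.6 and 25.9 FPKM. PBS replicate 4 was the low library, and the other 7 lay within a factor of 1.09. The PBS tumors averaged 23.8 ± 2.61 FPKM (SD, n = 4) and those given gluconate 25.8 ± 0.388 FPKM (SD, n = 4). This amounted to a log2 fold change of 0.12 (standard error 0.09, 95% interval -0.08 to 0.32), with an unadjusted limma p of 0.204. Without PBS replicate 4 it was 0.04, with an interval from -0.09 to 0.17. NFE2L2 overlaps AGPS on the opposite strand, and the strand setting of the counting is not given in the sources used here.

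Cystine import and glutathione synthesis are carried by 3 of the targets. SLC7A11 (chr4:138164097-138242349, minus strand), the light chain of the cystine/glutamate antiporter, was at 6.53, 6.20, 3.69 and 3.09 FPKM in PBS replicates 1 to 4. In the gluconate tumors it was at 5.27, 5.70, 6.46 and 6.02 FPKM. PBS replicates 3 and 4 were below all gluconate tumors, while PBS replicate 1 was above all of them. The highest library was 2.11 times the lowest, the widest span of the 10 genes. Its mean was 4.88 ± 1.74 FPKM (SD, n = 4) against 5.86 ± 0.502 FPKM (SD, n = 4) in gluconate tumors, with a log2 fold change of 0.33 (standard error 0.23, interval -0.19 to 0.84) and an unadjusted limma p of 0.189. Leaving out PBS replicate 4 lowered the fold change to 0.14 (interval -0.26 to 0.53), and leaving out PBS replicate 1 raised it to 0.49 (unadjusted limma p of 0.0561). SLC7A11-AS1 lies on the opposite strand of this gene.

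GCLC (chr6:53497341-53616970, minus strand) encodes the catalytic subunit of glutamate-cysteine ligase, which makes the first and limiting step of glutathione synthesis. Its PBS values were 16.8, 15.8, 17.2 and 11.5 FPKM in replicates 1 to 4. Its gluconate values were 15.4, 15.6, 15.8 and 15.2 FPKM. The gluconate tumors were nearly alike, with a coefficient of variation of 1.83%, and PBS replicate 4 was the only library under 15 FPKM. The log2 fold change was 0.03 (standard error 0.13, interval -0.25 to 0.32), with an unadjusted limma p of 0.792. Without PBS replicate 4 it turned to -0.10 (interval -0.24 to 0.04), as the other 3 PBS tumors were at 16.6 ± 0.718 FPKM (SD, n = 3) and the gluconate tumors at 15.5 ± 0.284 FPKM (SD, n = 4). For those 7 libraries the unadjusted limma p was 0.1497.

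GCLM (chr1:93885205-93909456, minus strand), the modifier subunit that raises the activity of GCLC and the gene of the first promoter shown above, was at 6.70, 6.87, 5.18 and 3.92 FPKM in PBS tumors. In gluconate tumors it was at 5.66, 5.15, 5.69 and 5.83 FPKM. PBS replicates 1 and 2 were above every gluconate tumor and PBS replicate 4 was below every one. The log2 fold change of 0.01 (standard error 0.17, interval -0.37 to 0.40) turned to -0.15 (interval -0.39 to 0.09) without PBS replicate 4. The ratio of GCLC to GCLM, per length, was 2.50, 2.30, 3.33 and 2.94 in PBS and 2.73, 3.04, 2.78 and 2.60 in gluconate replicates 1 to 4. The catalytic subunit was the more abundant mRNA in all 8 libraries, and the groups overlapped in the ratio. Its log2 difference, gluconate against PBS, was 0.02 (exact permutation test, two-sided, p = 0.886) and 0.05 without PBS replicate 4 (exact permutation test, p = 0.714). It turned below 0 without PBS replicate 1 (-0.02), PBS replicate 2 (-0.06) or gluconate replicate 2 (-0.02).

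The thioredoxin branch is represented by 2 reductases. TXNRD1 (chr12:104215779-104350305, plus strand), the cytosolic thioredoxin reductase and a selenoprotein, was at 85.1, 66.8, 62.0 and 68.3 FPKM in PBS tumors. In gluconate tumors it was at 77.8, 70.1, 75.4 and 69.1 FPKM. The PBS tumors held both the highest value, in replicate 1, and the lowest, in replicate 3, and PBS replicate 4 lay within the range of the others. Between the groups the log2 fold change was 0.06 (standard error 0.10, interval -0.17 to 0.29) and 0.05 without PBS replicate 4. It moved with the extreme PBS libraries, to 0.15 without replicate 1 (unadjusted limma p of 0.0779) and to 0.00 without replicate 3 (0.0019 before rounding). TXNRD1 shares its locus with EID3 on the same strand, so fragments of these genes can be mixed.

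SRXN1 (chr20:646615-653370, minus strand), the sulfiredoxin that restores overoxidized peroxiredoxins, was at 31.0, 26.2, 29.4 and 24.4 FPKM in PBS tumors. Its gluconate values were 28.1, 26.8, 33.0 and 27.0 FPKM. Gluconate replicate 3 was the highest of the 8 libraries and PBS replicate 4 the lowest. The log2 fold change of 0.05 (standard error 0.10, interval -0.18 to 0.28) was -0.01 (interval -0.21 to 0.19) without PBS replicate 4.

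NQO1 (chr16:69706996-69726951, minus strand), a quinone reductase widely read as a reporter of NRF2 activity, was at 92.3, 76.5, 48.5 and 58.5 FPKM in PBS replicates 1 to 4. In the gluconate tumors it was at 89.8, 76.1, 75.4 and 86.4 FPKM. PBS replicates 3 and 4 were below all gluconate tumors, PBS replicate 1 was above all of them, and PBS replicate 2 lay among them. The PBS tumors averaged 68.9 ± 19.4 FPKM (SD, n = 4) and those given gluconate 81.9 ± 7.29 FPKM (SD, n = 4). On the log2 scale the difference was 0.29 (standard error 0.18, interval -0.12 to 0.69). NQO1 had the lowest unadjusted limma p of the 10 genes, 0.143. Without PBS replicate 4 the fold change was 0.22 (interval -0.19 to 0.63), since replicate 3 remained low. The result depended on PBS replicates 1 and 3. Without replicate 3 the fold change was 0.13, with an unadjusted limma p of 0.397. Without replicate 1 it was 0.44, with an unadjusted limma p of 0.0177. This was the single case among the alternatives tried in which any of the 10 genes passed. In that fit 9.72% of all genes tested passed too, so 1 of 10 genes was close to the share of the whole table.

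The genes whose levels most resembled NQO1 were sought because, with PBS replicate 4 set aside, NQO1 spanned the widest log2 range of the 10 genes, 0.93. Over the 7 libraries, Pearson's r with NQO1 was 0.992 for ATXN10, 0.986 for INTS6 and 0.984 for ATP6V1D. These were the highest of 11130 genes compared, of which 121 exceeded 0.9. The 7 values share the low PBS replicate 3, so the correlations describe the ranking of these libraries. ATP6V1D, a subunit of the vacuolar proton pump, was at 115, 97.1 and 79.7 FPKM in PBS replicates 1 to 3 and at 111, 102, 103 and 108 FPKM in gluconate tumors. INTS6, a subunit of the Integrator complex, parted from NQO1 in the library left out, where it was at 3.66 FPKM against 1.71 to 2.37 FPKM in the others.

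HMOX1 (chr22:35380361-35394214, plus strand), heme oxygenase 1, which opens heme and frees its iron, was at 6.70, 7.33, 7.40 and 4.07 FPKM in PBS tumors. In gluconate tumors it was at 6.59, 7.81, 8.12 and 7.00 FPKM. The low value of PBS replicate 4 rests on 25 fragments, for which the exact 95% Poisson interval runs from 2.63 to 6.01 FPKM and covers counting error only. The interval ends below the lowest of the other 7 libraries, 6.59 FPKM. HMOX1 thus had a log2 fold change of 0.24 (standard error 0.19, interval -0.18 to 0.66), and it was 0.04 (interval -0.16 to 0.25) without PBS replicate 4.

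Ferritin was by far the most abundant product of the group. FTH1 (chr11:61959718-61967660, minus strand), the heavy chain with the ferroxidase center, was at 1134, 1267, 1105 and 1333 FPKM in PBS tumors. In gluconate tumors it was at 1433, 1070, 1191 and 1595 FPKM. The gluconate group held both the lowest library, replicate 2, and the highest, replicate 4, and its SD was the larger one, with 1322 ± 236 FPKM (SD, n = 4) against 1210 ± 108 FPKM (SD, n = 4) in PBS tumors. For FTH1, limma gave a log2 fold change of 0.12 (standard error 0.13, interval -0.17 to 0.40) and 0.16 without PBS replicate 4 (interval -0.13 to 0.46). It was 0.02 without gluconate replicate 4 and 0.21 without gluconate replicate 2.

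FTL (chr19:48965301-48966878, plus strand), the light chain that favors the iron core, was at 1579, 1859, 1503 and 1827 FPKM in PBS tumors. Its gluconate values were 1787, 1530, 1760 and 1552 FPKM. The gluconate values lay within the range of the PBS values, and the highest library was only 1.24 times the lowest, the narrowest span of the 10 genes. The log2 fold change of -0.03 (standard error 0.09, interval -0.24 to 0.18) was 0.01 without PBS replicate 4. By mean level FTL ranked 26 and FTH1 47 of all genes in the PBS tumors, and 28 and 41 in the gluconate tumors. Both mRNAs took 0.262% to 0.328% of all fragments in each library. In contrast to most of the other members, FTH1 and FTL were not low in PBS replicate 4, where they stood 0.16 and 0.21 above the median of the other 7 libraries on the log2 scale, against a median of -0.28 over all genes tested.

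The ratio of FTH1 to FTL was 0.718, 0.682, 0.735 and 0.730 in PBS replicates 1 to 4. In gluconate replicates 1 to 4 it was 0.802, 0.699, 0.677 and 1.03. The PBS tumors kept to a narrow band with a mean of 0.716 ± 0.0241 (SD, n = 4), while the gluconate tumors had 0.802 ± 0.161 (SD, n = 4), and gluconate replicate 4 was the only library with more FTH1 than FTL. The log2 difference was 0.14 (exact permutation test, two-sided, p = 0.429) and fell to 0.02 when gluconate replicate 4 was left out. It was 0.15 without PBS replicate 4 (exact permutation test, p = 0.457). GENCODE 29 lists 25 pseudogenes of FTH1 and 16 of FTL, of which 0 have an entry in the table, and how the counting treated fragments shared with them is not given in the sources used here, so the ferritin levels are uncertain. FTH1 also overlaps BEST1 on the opposite strand.

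**Figure D2:**
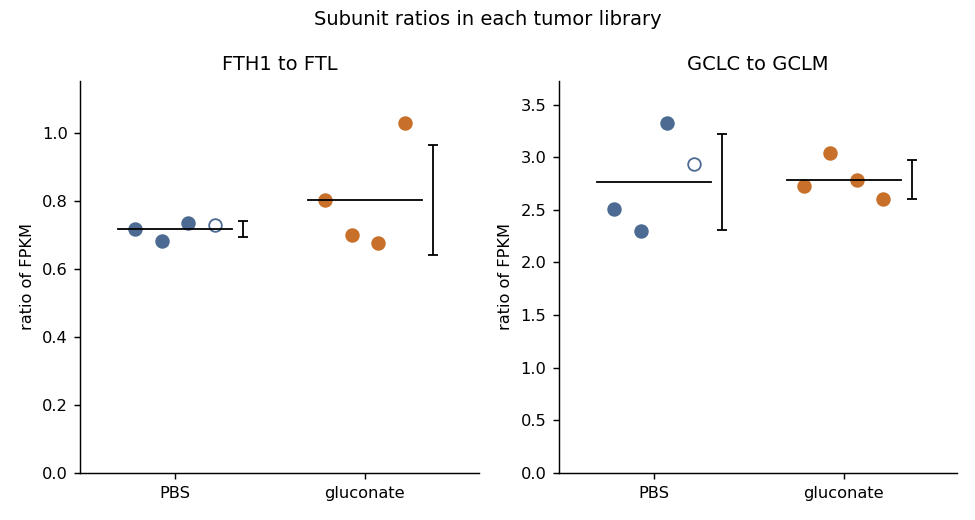
Ratio of FTH1 to FTL (left) and of GCLC to GCLM (right) in each library, computed from FPKM on linear axes from 0, with group means as lines and SDs as bars (n = 4). The open point is PBS replicate 4, and gluconate replicate 4 is the only library with an FTH1 to FTL ratio above 1, at 1.03.

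Per length and by mean level in the PBS tumors, the order was FTL, FTH1, TXNRD1, NQO1, SRXN1, NFE2L2, GCLC, HMOX1, GCLM and SLC7A11. FTL exceeded FTH1 in 7 of 8 libraries, and FTH1 exceeded TXNRD1 in 8 of 8 without overlap, with at least 1070 FPKM against at most 85.1 FPKM. TXNRD1 and NQO1 were not separated, as TXNRD1 was the higher in only 3 of 8 libraries. NQO1 and SRXN1, NFE2L2 and GCLC, and GCLC and HMOX1 had ranges that did not overlap. The ranges of SRXN1 and NFE2L2 and of HMOX1 and GCLM overlapped between libraries. Within each library SRXN1 was above NFE2L2 and HMOX1 above GCLM, in 8 of 8. However, HMOX1 and GCLM were both at 6.70 FPKM after rounding in PBS replicate 1. In PBS replicate 4, the Poisson interval of HMOX1, 2.63 to 6.01 FPKM, covered GCLM at 3.92 FPKM. GCLM and SLC7A11 also overlapped, with GCLM the higher in 5 of 8 libraries.

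**Figure D3:**
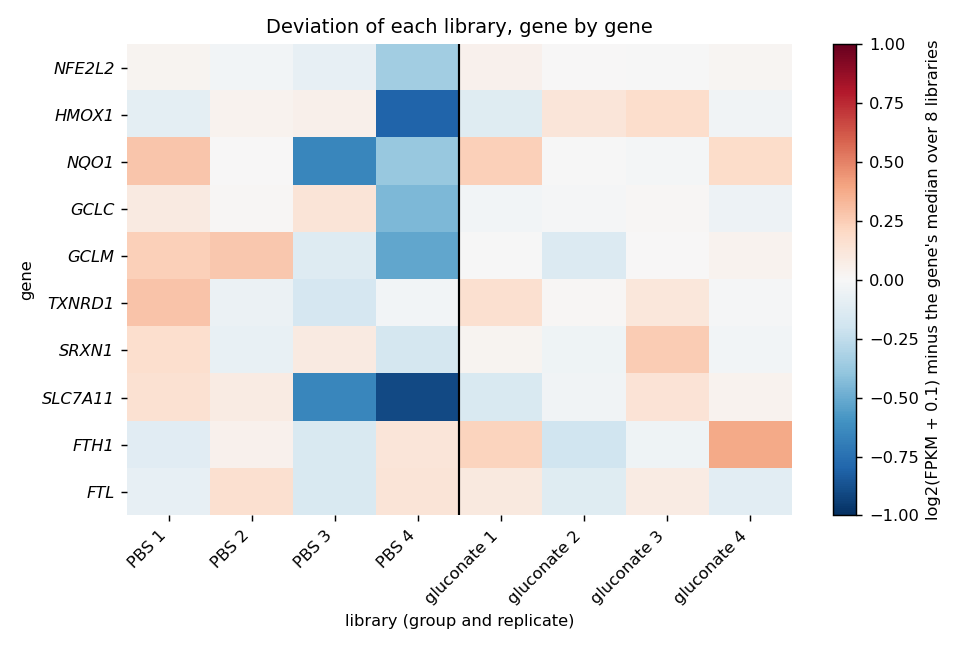
Log2(FPKM + 0.1) of each gene in each library minus the gene's median over the 8 libraries, with PBS libraries left of the line and gluconate libraries right of it. Blue marks a low and red a high library. The darkest cells are PBS replicate 4 in HMOX1 and SLC7A11 and PBS replicate 3 in NQO1 and SLC7A11, and the gluconate columns are pale apart from FTH1 in replicate 4.

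The spread of the 10 genes was larger among the PBS tumors. Their median coefficient of variation was 15.6% in PBS and 8.37% in gluconate tumors, beside 17.4% and 8.29% over all genes tested. Without PBS replicate 4 the PBS value was 9.94%, beside 9.68% over all genes, so that the 10 genes moved with the whole table in this respect too. PBS replicate 3 was the lowest of the other 7 libraries in 5 of the 10 genes (NFE2L2, NQO1, TXNRD1, SLC7A11 and FTL), against 25.7% of all genes tested. This grouping was noticed after the values were seen and was not tested.

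**Figure D4:**
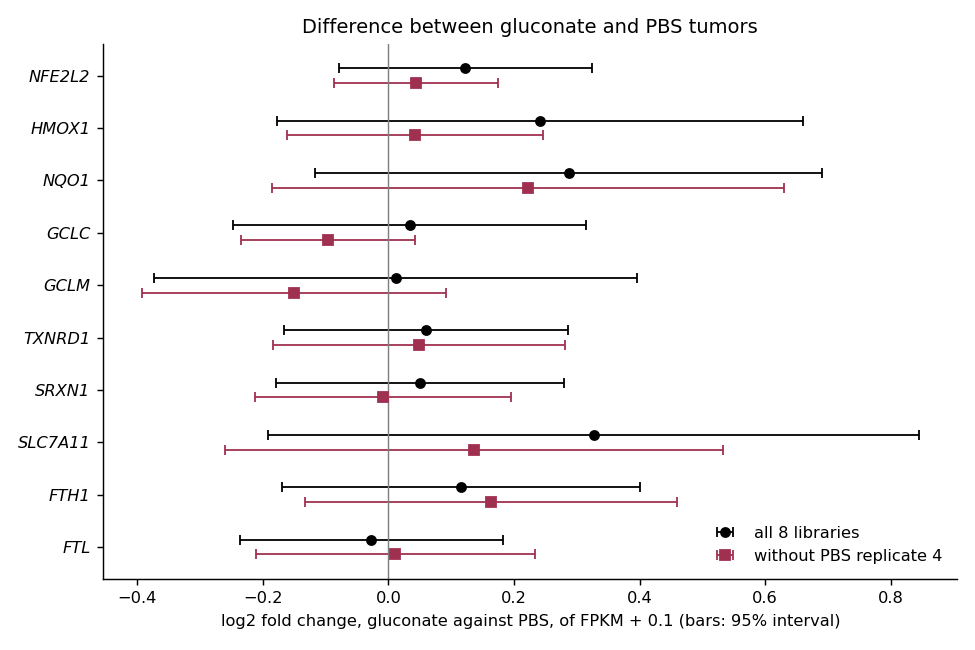
Log2 fold change of each gene, gluconate against PBS, with its 95% interval from limma, for all 8 libraries (circles) and without PBS replicate 4 (squares). All intervals include 0, and the widest belongs to SLC7A11, from -0.19 to 0.84.

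The other genes of the pathway were read from 5 lists with 83 genes, of which 68 could be tested. At an unadjusted limma p under 0.05, 4 were higher and 1 was lower in gluconate tumors, or 7.35% of the 68 genes, beside 4.62% over all genes tested, and 0 had an adjusted p under 0.05. The same 5 genes had an unadjusted p under 0.05 without PBS replicate 4, where the share over all genes tested was 6.18%. The count moved with single libraries, and the share over all genes tested moved too. It was 9 without PBS replicate 1, beside 9.72% of all genes, and 2 without PBS replicate 3, beside 4.04%. Without gluconate replicates 1, 2 and 4 it was 2, 3 and 1, beside 3.64%, 3.16% and 2.14% of all genes. Median-ratio scaling gave 2 beside 5.67%, and an unmoderated fit gave 2 beside 3.92%. All 5 genes below had an adjusted p of 0.740 (limma, Benjamini-Hochberg), so their values are descriptions of single genes.

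Of the 10 regulators and partners of NRF2, 1 was lower and 0 were higher, and the median log2 fold change was 0.04, which turned to -0.03 without PBS replicate 4. The 1 gene was BACH1, the repressor that competes with NRF2 at antioxidant response elements. It was at 18.2, 16.1, 21.7 and 17.2 FPKM in PBS and at 14.8, 15.5, 16.6 and 13.6 FPKM in gluconate tumors. Only gluconate replicate 3 reached into the PBS range, and the log2 fold change was -0.27 (unadjusted limma p of 0.0353), or -0.29 without PBS replicate 4. SQSTM1, the autophagy receptor that binds KEAP1 and the most abundant of the list, was at 199 ± 10.2 FPKM (SD, n = 4) in PBS and 207 ± 11.4 FPKM (SD, n = 4) in gluconate tumors. Its fold change of 0.05 was 0.02 without PBS replicate 4. The lowest fold change was that of CUL3, the scaffold of the ligase, at -0.49, and -0.05 without PBS replicate 4. CUL3 was at 48.6 FPKM in PBS replicate 4 and at 13.1 to 15.0 FPKM in the other 7. BTRC, which marks NRF2 for breakdown apart from KEAP1, had the highest fold change of the list at 0.13, and -0.02 without PBS replicate 4.

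Among 20 other target genes of NRF2, 13 were tested, 1 was higher and 0 were lower, with a median of 0.08, or 0.01 without PBS replicate 4. PIR, pirin, was at 0.570, 0.624, 0.786 and 1.16 FPKM in PBS and at 1.46, 1.00, 0.933 and 1.43 FPKM in gluconate tumors. The groups overlapped through PBS replicate 4 only, and the log2 fold change was 0.58 (unadjusted limma p of 0.0447), or 0.77 without that library. TKT, the transketolase of the pentose phosphate pathway and the most abundant of this list, was at 105 ± 5.17 FPKM (SD, n = 4) in PBS and 105 ± 5.36 FPKM (SD, n = 4) in gluconate tumors, and its fold change was 0.00 with PBS replicate 4 (0.0025 before rounding) and -0.01 without it. AKR1C3, an aldo-keto reductase, had the lowest fold change at -0.06, or -0.17 without PBS replicate 4.

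Of 17 genes of glutathione synthesis and use, 14 were tested, 1 was higher and 0 were lower, with a median of 0.10, or 0.02 without PBS replicate 4. GPX8, a peroxidase of the endoplasmic reticulum, was at 32.5, 25.1, 25.9 and 18.8 FPKM in PBS and at 29.8, 34.2, 34.3 and 36.4 FPKM in gluconate tumors. PBS replicate 1 lay among the gluconate values, and the log2 fold change was 0.42 (unadjusted limma p of 0.0201), or 0.28 without PBS replicate 4. GSTP1, the most abundant glutathione transferase here, was at 543 ± 68.4 FPKM (SD, n = 4) and 608 ± 22.7 FPKM (SD, n = 4) in PBS and gluconate tumors, a fold change of 0.17, or 0.08 without PBS replicate 4. GGT1, which breaks down extracellular glutathione, had the lowest fold change at -0.27, or -0.24 without it.

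All 16 thioredoxins, peroxiredoxins, dismutases and relatives were tested, 1 was higher and 0 were lower, with a median of 0.10, or 0.06 without PBS replicate 4. SOD2, the manganese superoxide dismutase of mitochondria, was at 10.5, 6.14, 6.71 and 6.66 FPKM in PBS and at 10.1, 8.55, 9.93 and 14.9 FPKM in gluconate tumors. PBS replicate 1 lay within the gluconate range, and the log2 fold change was 0.53 (unadjusted limma p of 0.0295), or 0.48 without PBS replicate 4. PRDX1, the most abundant peroxiredoxin, was at 511 ± 31.2 FPKM (SD, n = 4) in PBS and 494 ± 22.6 FPKM (SD, n = 4) in gluconate tumors. Its fold change was -0.05, or -0.08 without PBS replicate 4. TXNIP, the inhibitor of thioredoxin, had the highest fold change at 0.70, and 0.36 without PBS replicate 4, neither of which passed. PRDX2 had the lowest at -0.07, and it was also at -0.07 without PBS replicate 4, where PRDX1 was lower.

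Of 20 genes of iron and heme handling, 15 were tested, 1 was higher and 0 were lower, with a median of 0.07, or 0.03 without PBS replicate 4. TFRC, the transferrin receptor that takes up iron and whose mRNA is stabilized when iron is scarce, was at 37.5, 39.4, 41.4 and 39.7 FPKM in PBS and at 45.4, 46.1, 43.0 and 44.6 FPKM in gluconate tumors. Every gluconate tumor was above every PBS tumor, where the groups did not overlap for 3.49% of all genes tested. The log2 fold change of TFRC was 0.18 (standard error 0.06, unadjusted limma p of 0.0185), and it was 0.18 without PBS replicate 4 too. SLC11A2, the iron transporter DMT1, had the highest fold change of the list at 0.35 and groups that did not overlap, but 0.15 without PBS replicate 4, and did not pass in either case. PCBP1 and PCBP2, iron chaperones that deliver to ferritin and also bind poly(C) RNA, had the lowest fold change and the highest level of the list, respectively. PCBP1 was at 604 FPKM in PBS replicate 4 and at 142 to 178 FPKM in the other libraries, and PCBP2 was at 838 FPKM against 188 to 238 FPKM. Their log2 fold changes of -0.54 and -0.48 were -0.06 and 0.01 without that library.

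**Figure D5:**
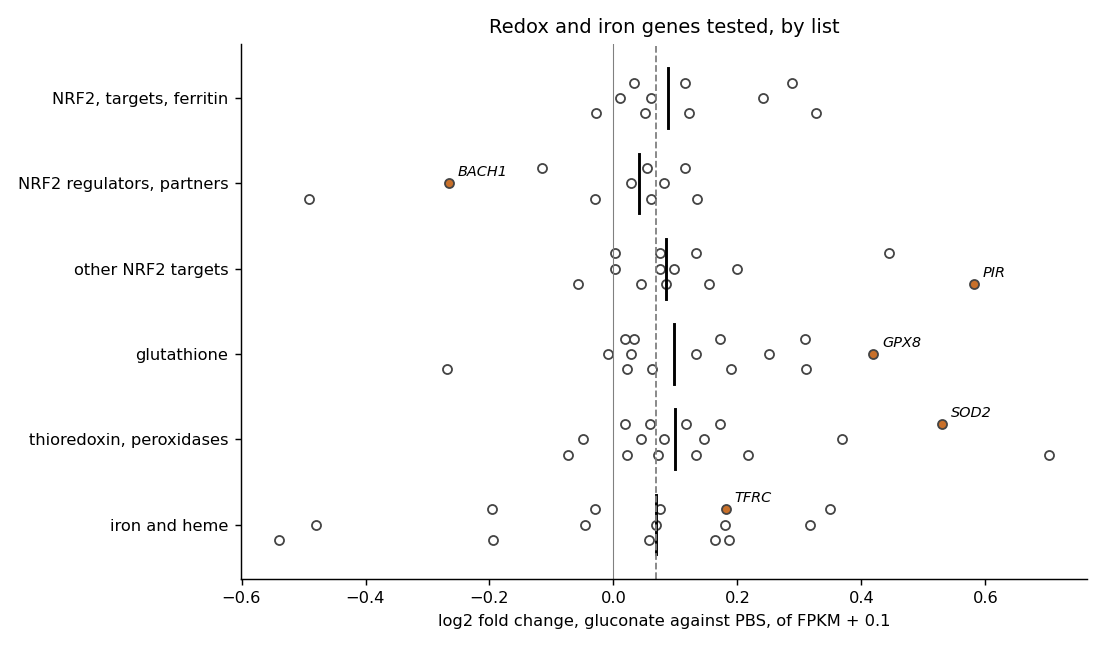
Log2 fold change of every gene tested in the group of 10 and in the 5 pathway lists, 1 point per gene, spread vertically for legibility only. Filled and named points had an unadjusted limma p under 0.05, black bars are list medians, and the dashed line is the median of all genes tested, 0.07.

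Markers of the tumor cells and of other cell types were read beside these genes. Of 12 ovarian carcinoma markers, 9 were tested, 1 was higher and 0 were lower at an unadjusted p under 0.05, beside 4.62% of all genes tested. Their log2 fold changes were above 0 in 6 and below 0 in 3, from -0.67 for WT1 to 1.46 for WFDC2, with a median of 0.13 beside 0.07 over all genes. In PBS replicate 4, WT1 was at 6.58 FPKM against 1.07 to 1.82 FPKM in the other libraries. WFDC2 was at 0 there and low in the others, at 0.40 to 2.23 FPKM. Without PBS replicate 4 the log2 fold change was -0.14 for WT1 and 0.61 for WFDC2. EPCAM then also lay below 0, and the median was 0.03. PAX8 was at 32.4 to 50.7 FPKM over all libraries. The keratin KRT8 was at 747 to 1051 FPKM in PBS and 700 to 878 FPKM in gluconate tumors, and KRT18 at 540 to 987 and 513 to 682 FPKM, while MUC16, KRT19 and CDH1 were at or near 0 in all libraries. The higher gene was KRT7, with a log2 fold change of 0.73 (unadjusted limma p of 0.0201), or 0.48 without PBS replicate 4.

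The 7 myeloid markers listed summed to 26.1 to 29.1 FPKM in PBS and 20.9 to 28.1 FPKM in gluconate tumors, nearly all of it CD68, at 25.1 to 28.05 and 19.7 to 27.2 FPKM. ITGAM was at 0.69 to 1.36 FPKM and MARCO at 0.13 to 0.49 FPKM, and PTPRC, CSF1R, CD14 and LYZ were at most 0.12 FPKM. The 3 red blood cell markers listed summed to at most 0.34 FPKM. The 10 fibroblast markers summed to 347 to 432 FPKM in PBS replicates 1 to 3, to 207 FPKM in PBS replicate 4 and to 387 to 524 FPKM in gluconate tumors. Most of this came from COL1A1 and SPARC, with LUM, PDGFRB, FAP and COL3A1 at 0.23 to 5.18 FPKM, and COL1A2, DCN, PDGFRA and THY1 at most 0.13 FPKM. All 6 fibroblast markers tested had a fold change above 0, with a median of 0.47 (0.22 without PBS replicate 4) beside 0.07 over all genes (0.00 without that library). Of the 6, 1 had an unadjusted p under 0.05, against 4.62% of all genes tested. This was SPARC, with a log2 fold change of 0.45 (unadjusted limma p of 0.0193), or 0.33 without PBS replicate 4.

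The 8 endothelial markers summed to 1.27 to 4.22 FPKM in PBS and 1.199 to 1.52 FPKM in gluconate tumors. Only TIE1 reached the filter on low values, and it did so through the PBS tumors, where replicate 3 held 2.86 FPKM and replicate 4 held 0.90 FPKM, so no test is given for it. The gluconate tumors held 0.20 to 0.32 FPKM. The 4 adipocyte markers listed summed to 6.64 to 9.00 FPKM in PBS replicates 1 to 3, to 12.2 FPKM in PBS replicate 4 and to 6.00 to 8.46 FPKM in gluconate tumors, almost all of it LPL. Host cells are murine, and whether their reads were removed or counted under human symbols is not given in the sources used here. The part of these markers in the results on the 10 genes was not tested.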

How the data were processed

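RNA of OVCAR8 tumors was sequenced by the authors from 8 poly(A) libraries, read in pairs of 150 bases. The authors deposited FPKM values for 24196 genes by symbol. Their processing notes name GRCh38, and the aligner, counter and annotation are not given in the sources used here. The columns are headed C or T with a replicate number, and C was read as PBS and T as gluconate from the axis of the study's plot of these data. FPKM values of all 24196 genes were whole multiples of 1 fragment (100%, within 0.001 fragments plus 2e-08 of the count), which gave the depth and the fragments per gene. Since the values are FPKM, groups were compared on log2(FPKM + 0.1), which understates changes of low genes, by the moderated two-sided test of limma 3.58.1 (R 4.3.3), with a mean-variance trend and no block. Genes entered it at a mean FPKM of 0.5 or more, which left 12486. Adjusted p values follow Benjamini-Hochberg over all of them. Subunit ratios were compared with the exact permutation test over 70 splits (smallest p 0.0286). Intervals are 95%. Scripts were tested on simulated data.

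The 10 genes and the gene lists were chosen with earlier results of these data known. Of each list, the text names genes with an unadjusted p under 0.05, the most abundant gene and those with the lowest and highest fold change, and it names the 3 genes most correlated, at a mean FPKM of at least 1, with the member of the widest range. Other marker genes were named after their values were seen. Alternatives were pseudocounts of 1 and 0.01, no filter, a mean FPKM of at least 1, median-ratio and quantile scaling, an unmoderated fit, voom on recovered fragments, array weights, a replicate block, and each library left out in turn. Sequences came from RefSeq windows (GRCh38.p14) and GENCODE 29 transcripts, searched with Python 3.11.15, numpy 2.4.6, pandas 2.3.3 and scipy 1.17.1. Figures were drawn with matplotlib 3.10.9.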

Additional observations from a re-analysis of the deposited data

How the results depend on the processing

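The count of 0 of the 10 genes at an unadjusted limma p under 0.05 held in 17 of 18 alternatives. It was 0 to 1 when single libraries were left out, NQO1 without PBS replicate 1 being the 1 gene. In that fit 9.72% of all genes tested passed, close to 1 of 10. The median log2 fold change of the 10 genes stayed above 0 in all 18, from 0.02 with median-ratio scaling to 0.13. It ran from 0.04 to 0.13 with single libraries left out. The filters on low values, the unmoderated fit and the replicate block cannot change fold changes, so they do not test its direction. The ferritin ratio kept its direction in 13 of 13, from 0.02 to 0.22. The GCLC to GCLM ratio, near 0 throughout, ran from -0.0593 to 0.115 with single libraries left out. Median-ratio scaling and the block cannot move the differences of these ratios, apart from the effect of the pseudocount. The count over the pathway lists was 2 with median-ratio scaling and 2 in an unmoderated fit, and 1 to 9 with single libraries left out, beside 2.14% and 9.72% of all genes tested in those fits. Fold changes near 0 turned their sign. With median-ratio scaling GCLC was at -0.0316, GCLM at -0.0531, TXNRD1 at -0.0054 and SRXN1 at -0.0153. GCLM was at -0.0582 with quantile normalization. Voom gave -0.0538 for GCLC and -0.111 for GCLM, and array weights gave -0.0635 and -0.177, with FTL at 0.0043. Lowest to highest with single libraries left out, GCLC ran from -0.0970 to 0.0954, GCLM from -0.151 to 0.114, SRXN1 from -0.0172 to 0.106 and FTL from -0.0826 to 0.0196. In the same way, NFE2L2 ran from 0.0434 to 0.167, HMOX1 from 0.0423 to 0.325, NQO1 from 0.133 to 0.442, SLC7A11 from 0.136 to 0.488, TXNRD1 from 0.0019 to 0.154 and FTH1 from 0.0192 to 0.211. The cause of these turns was not tested.

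With a replicate block, 0 of the 10 genes and 5 of the pathway genes had an unadjusted p under 0.05. The share over all genes tested was not computed for that fit, so these counts have no background. NQO1 had a limma p of 0.0819 with the block. The ferritin ratio difference of 0.14 cannot change with such a block. The deviations of same-numbered libraries had correlations of -0.18, 0.08, 0.17 and -0.06. No pairing by number was seen, but so few libraries cannot exclude one. The depth of PBS replicate 4, with 25 fragments of HMOX1 and 99 of GCLM, limits what 8 libraries can show for the less abundant genes.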
